A study of Homo sapiens with 9 samples.

Results

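MYC, SRF, IER2, IER3, IER5, MCL1, ZFP36, ZFP36L1, ZFP36L2 and ZC3H12A are 10 genes that growth factors switch on early or that encode factors for the decay of unstable mRNAs. They were chosen with earlier results of these data known, and were taken by symbol from the deposited table of gene counts. All 10 had a row among the 26475 in the table, and all 10 passed the filter on low counts that left 14135 genes for testing. The RNA came from the established human cell line MDA-MB-231, grown from a breast adenocarcinoma that lacks hormone receptors and ERBB2 amplification. It was sequenced in 9 libraries, 3 per group. ACSL4 knockdown cells stably carried a pLKO.1 lentiviral plasmid with a short hairpin RNA against ACSL4, an acyl-CoA synthetase that prefers polyunsaturated fatty acids. PRGL493 cells were control cells given PRGL493, an inhibitor of ACSL4, so they carried the empty pLKO.1 vector too. Control cells carried that empty vector and had no treatment. The labels give no hairpin sequence, no dose, time or vehicle for PRGL493, and no word on whether a line was 1 clone. Each group's 3 libraries came from different batches of its cells, per the series' design text. The p-values therefore cover the spread between batches and not that between hairpins or transductions.

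Growth factor receptors pass their signal through the ERK kinases to transcription factors that already sit in the nucleus. One of these is SRF, which binds the CArG box together with its ELK or MRTF cofactors, and the genes it reaches are transcribed within minutes. MYC belongs to this early wave and drives genes of ribosome making and growth. Early mRNAs are also short-lived. ZFP36 (tristetraprolin), ZFP36L1 and ZFP36L2 bind AU-rich elements in the 3′ UTR through a pair of zinc fingers and bring in the CCR4-NOT deadenylase. ZC3H12A (Regnase-1) is an endonuclease that cuts stem-loops in the 3′ UTR of inflammatory mRNAs such as IL6. Several of these regulators are encoded by mRNAs that carry such elements themselves.

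The AU-rich elements are shown first because they are the sites that the ZFP36 proteins bind. In the GENCODE 29 transcripts, the pentamer ATTTA was found in the 3′ UTR of 8 of the 10 genes, against 68.0% of 17960 3′ UTRs. The nonamer TTATTTATT, the preferred site of the ZFP36 proteins, was found in 5 of them, against 8.34% of all 3′ UTRs. The search used the transcript strand alone, and each nonamer also holds a pentamer. The shares over all 3′ UTRs were not matched for length. The nonamers, in capitals, lie in these stretches of the reference, read 5′ to 3′ with T for U:
ZFP36: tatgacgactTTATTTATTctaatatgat
ZFP36L1: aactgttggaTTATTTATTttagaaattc
ZFP36L2: actatttaacTTATTTATTatcttgtgaa
SRF: atggcaccacTTATTTATTgttgcctttt
IER5: cttcctTTATTTATTTATTTATTtaatta

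The stretch of IER5 held 3 overlapping nonamers, and the others held 1 each. By density MYC had 8.40 pentamers per kb of 3′ UTR, ZFP36 had 7.01 and IER3 had 6.64, against a median of 1.52 over all genes. SRF, at 1.29, was below that median. IER2 and ZC3H12A had no pentamer on the transcript used. A match describes letters and does not show binding.

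**Figure D1:**
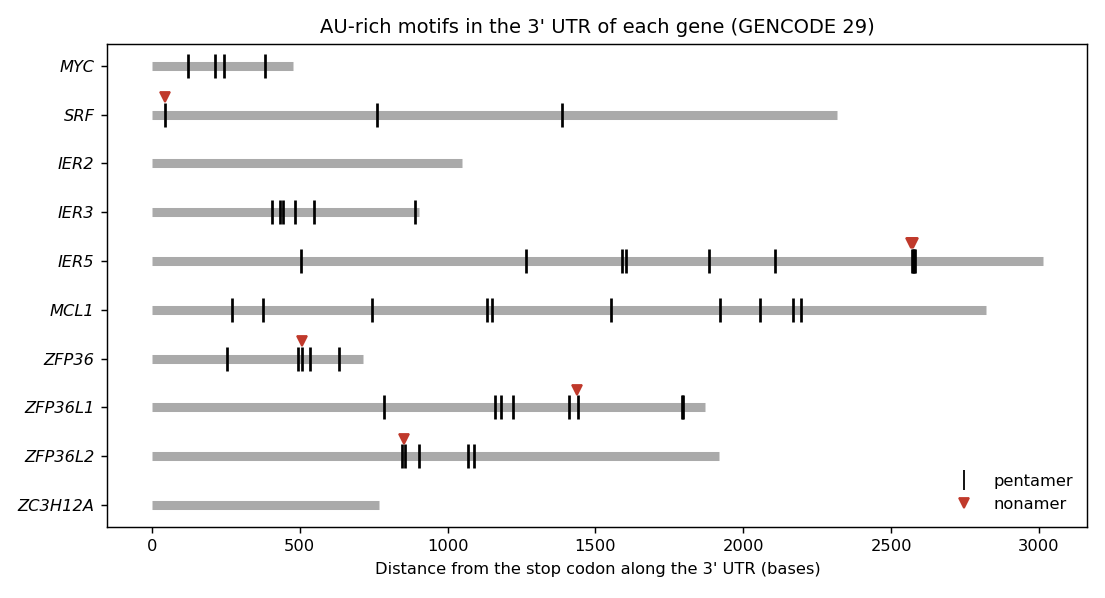
Position of each pentamer (black ticks) and nonamer (red triangles) along the 3′ UTR of the 10 genes, in bases from the stop codon, with grey bars for the length of the 3′ UTR. IER5 has the longest 3′ UTR (3013 bases) with 3 nonamers near its end, and IER2 and ZC3H12A have no match.

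RefSeq promoter entries (GRCh38.p14) were matched for 6 of the 10 genes, with 8 start sites; MYC, IER3, MCL1 and ZFP36L2 had none. The upstream sequences of ZFP36 and IER2, whose RNA fell furthest in knockdown cells, are set beside that of SRF, whose own gene is a textbook SRF target. All 3 are on the plus strand, with a CArG box in capitals. The IER2 and SRF stretches are the 250 bases up to the start site, while that of ZFP36 has 216 bases and stops 34 bases before it, where the GENCODE 29 gene begins. ZFP36 is at chr19:39406597-39406812, IER2 at chr19:13150161-13150410 and SRF at chr6:43171019-43171268.
ZFP36: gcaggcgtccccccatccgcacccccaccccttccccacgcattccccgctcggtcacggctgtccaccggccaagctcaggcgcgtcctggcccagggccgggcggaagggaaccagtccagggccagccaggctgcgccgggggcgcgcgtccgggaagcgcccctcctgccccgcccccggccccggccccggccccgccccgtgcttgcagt
IER2: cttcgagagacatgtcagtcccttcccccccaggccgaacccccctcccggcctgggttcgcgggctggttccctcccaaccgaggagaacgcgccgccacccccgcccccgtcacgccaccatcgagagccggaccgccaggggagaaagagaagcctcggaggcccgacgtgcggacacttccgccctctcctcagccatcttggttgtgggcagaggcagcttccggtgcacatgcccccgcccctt
SRF: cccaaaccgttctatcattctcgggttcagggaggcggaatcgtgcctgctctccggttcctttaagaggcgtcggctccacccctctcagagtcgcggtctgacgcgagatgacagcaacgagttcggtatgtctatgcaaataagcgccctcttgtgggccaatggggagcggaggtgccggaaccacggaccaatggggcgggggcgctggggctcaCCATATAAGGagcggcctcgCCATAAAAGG

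SRF held 2 CArG boxes, CCATATAAGG from 30 to 21 bases and CCATAAAAGG from 10 bases to 1 base before its start. On both strands, 1.16% of all 35116 promoter entries held a CArG box in the 250 bases before the start. The windows of IER2, IER5, ZC3H12A, ZFP36 and ZFP36L1 held none, nor did that of another SRF start site. That says only that these letters are not in these stretches. The ETS core GGAAG, searched on both strands, occurred 3 times in the 250 bases before the start of IER2 and 3 times in those of ZFP36, and it is present in 65.1% of all entries.

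All 10 genes fell in knockdown cells, and 9 of them fell with PRGL493 as well. ZFP36, IER2 and MCL1 fell most in knockdown cells, and ZFP36, MCL1 and ZC3H12A fell most with PRGL493. Levels are CPM, that is counts scaled to a common library size with TMM factors. Log2 fold changes, their standard errors (SE) and adjusted p-values come from edgeR's quasi-likelihood test over all genes, and a gene was called at an adjusted p below 0.05. Because the 10 genes were chosen with earlier results known, the shares of all genes beside their counts are description, not a test of the set. In knockdown against control 10 of 10 were called lower and 0 higher, where 15.3% of all tested genes were called lower. The groups did not overlap for 10 of 10, against 21.2% of all genes. Their median log2 fold change was -0.92, against 0.00 over all tested genes. A fall of at least 2-fold was called for 5 of the 10, against 1.66% of all genes. With PRGL493 9 of 10 were called lower, where 20.4% of all genes were, and the median was -0.58 against 0.01. The groups did not overlap, with PRGL493 lower, for 9, against 27.2% of all genes. The fall was at least 2-fold for 1, against 3.19% of all genes. Both comparisons used the same 3 control libraries. Across both, 9 of the 10 genes were called lower in each, as were 5.43% of all genes. In bulk RNA, fewer cells with a transcript and less of it per cell cannot be told apart.

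**Figure D2:**
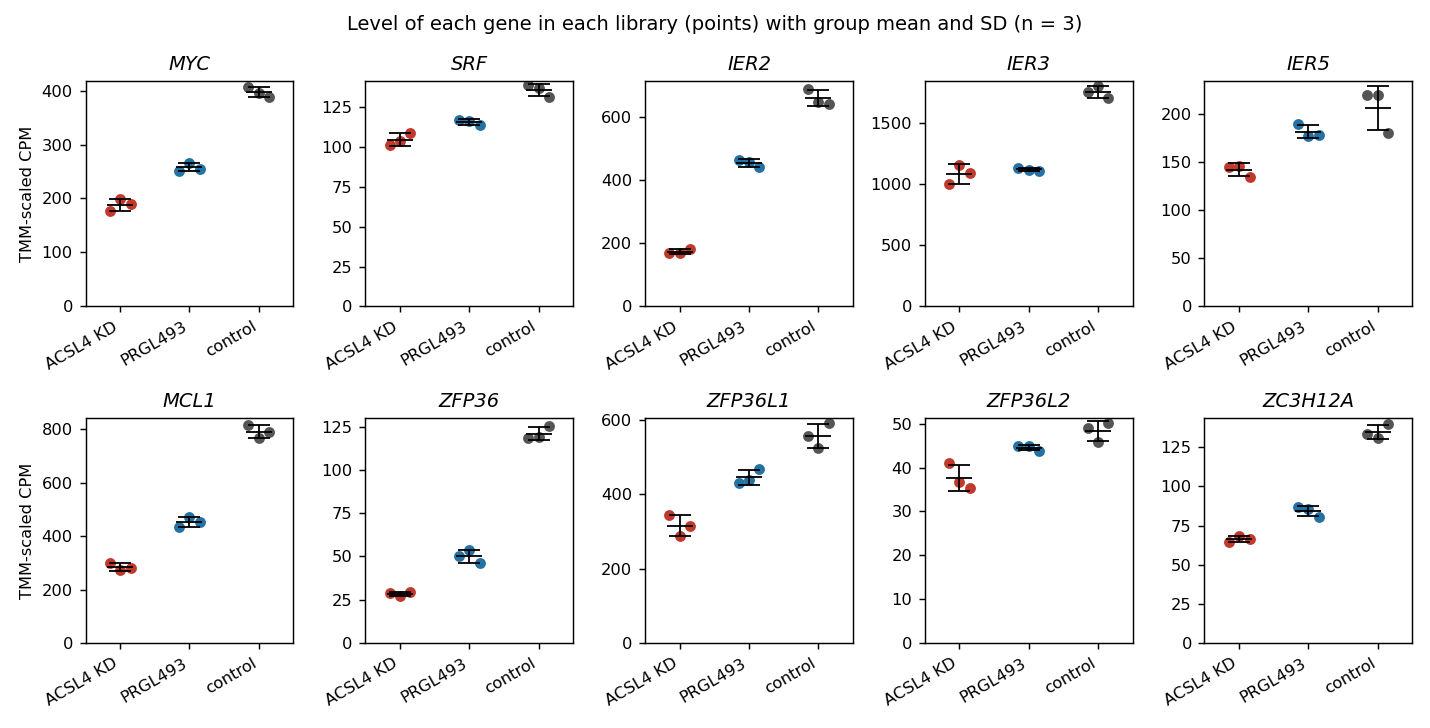
CPM of each gene in each library (points), with the group mean and SD (n = 3), for ACSL4 knockdown, PRGL493 and control cells; each axis starts at 0. In every panel the 3 knockdown libraries lie below the 3 control libraries, and in 9 of the 10 panels the PRGL493 libraries do too, with IER5 the exception.

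Library totals ran from 28673940 to 43027217 counts, and counts of the 10 genes from 1035 to 55897 per library. ACSL4 itself was at 27.0 ± 2.95 CPM in knockdown cells, 348 ± 13.7 CPM in PRGL493 cells and 349 ± 14.8 CPM in control cells (SD, n = 3 each). The markers listed as high in this line, VIM, CD44, AXL and EGFR, ran from 172 to 1811 CPM. Of 5 markers listed as low in this line, ESR1 and PGR had at most 6 counts in any library and CDH1 was at 0.419 to 2.04 CPM, while EPCAM was at 8.70 to 30.5 CPM and ERBB2 at 68.1 to 104 CPM. Of 8 markers of other cells, PTPRC, CD3E, FOXA1, LYZ and VWF had at most 14 counts and PECAM1 was at 1.10 to 3.11 CPM. The other two, the luminal genes GATA3 and KRT19, were at 10.9 to 15.2 CPM and at 319 to 536 CPM. Knockdown replicate 2 stood apart. There, the median log2 deviation from a gene's own average was 0.18 for transcripts of up to 2158 bases and -0.17 for those of at least 5142 bases. Elsewhere these medians ran between -0.07 and 0.06.

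MYC, on chromosome 8 (127735434 to 127741434, plus strand, GRCh38), is a transcription factor that pairs with MAX. It was at 176, 199 and 190.0 CPM in the knockdown libraries, at 252, 266 and 255 CPM in the PRGL493 libraries and at 406, 396 and 388 CPM in the control libraries. The 3 groups did not overlap, with knockdown lowest and PRGL493 in between. In knockdown cells MYC was at 47.5% of control (log2 fold change -1.07, SE 0.05, edgeR adjusted p = 1.1e-10). With PRGL493 it was at 64.9% of control (log2 fold change -0.62, SE 0.05, edgeR adjusted p = 8.5e-08). Knockdown was also below PRGL493, by a log2 fold change of -0.45 (SE 0.05, edgeR adjusted p = 2.5e-06).

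SRF lies on chromosome 6 (43171299 to 43181507, plus strand). Knockdown libraries had 101, 103 and 109 CPM of SRF RNA, set against 117, 116 and 114 CPM in the PRGL493 libraries, and 139, 137 and 131 CPM in the control libraries. The groups did not overlap, but the steps were small. SRF fell by 0.38 on the log2 scale in knockdown cells (SE 0.05, edgeR adjusted p = 3.5e-05) and by 0.23 with PRGL493 (SE 0.05, edgeR adjusted p = 0.0015). Knockdown against PRGL493 gave a log2 fold change of -0.15 (SE 0.05, edgeR adjusted p = 0.023). That difference was 0.03 once a trend with transcript length and GC content was removed (edgeR adjusted p = 0.42), so no order of knockdown and PRGL493 is read from it. The call was also lost without knockdown replicate 1 (log2 fold change -0.11), PRGL493 replicate 1 (-0.13) or PRGL493 replicate 2 (-0.13). Upper-quartile factors lost it too (-0.09, edgeR adjusted p = 0.15), as did a fit of the knockdown and PRGL493 libraries alone (-0.15, edgeR adjusted p = 0.051).

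The IER genes are immediate early response genes, transcribed without new protein synthesis. IER2 encodes a nuclear protein and lies on chromosome 19 (13150415 to 13154908, plus strand). It was at 170, 168 and 181 CPM in the knockdown libraries, at 463, 459 and 440.5 CPM in the PRGL493 libraries and at 688, 649 and 642 CPM in the control libraries. The knockdown libraries stood far below both other groups, which were closer to each other. Against control, IER2 fell 3.81-fold in knockdown cells (edgeR adjusted p = 1.9e-14, log2 fold change -1.93, SE 0.05). The fall with PRGL493 was 1.45-fold (log2 fold change -0.54, SE 0.05, edgeR adjusted p = 3.0e-07). The difference between knockdown and PRGL493 was the widest of the 10 genes (log2 fold change -1.39, SE 0.05, edgeR adjusted p = 2.1e-12). An antisense gene, AC011446.2, shares 946 exonic bases with IER2, and since strand use in counting is not given in the sources used here, its reads may be included.

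IER3, on chromosome 6 (30743199 to 30744554, minus strand), encodes a protein tied to survival signalling. Its level was 1002, 1161 and 1089.8 CPM in the knockdown libraries, 1138, 1119.6 and 1108 CPM in the PRGL493 libraries, and 1756, 1807 and 1708 CPM in the control libraries. Here knockdown and PRGL493 libraries overlapped, and both groups lay below control. It fell by 0.70 in knockdown cells (SE 0.05, edgeR adjusted p = 4.6e-08) and by 0.65 with PRGL493 (SE 0.05, edgeR adjusted p = 8.0e-08) on the log2 scale. Between knockdown and PRGL493 the log2 fold change was -0.05 (95% interval -0.16 to 0.06, edgeR adjusted p = 0.46). That difference was 0.01 without knockdown replicate 1 and also 0.01 with upper-quartile factors. Removing the length and GC trend gave a called difference (-0.10, edgeR adjusted p = 0.014). The antisense gene IER3-AS1 shares 359 exonic bases with IER3, with the same limit as for IER2.

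IER5, on chromosome 1 (181088712 to 181092899, plus strand), encodes an activator of the heat shock factor HSF1. It was at 145, 147 and 135 CPM in the knockdown libraries, at 190.0, 178 and 179 CPM in the PRGL493 libraries and at 220.3, 220.5 and 181 CPM in the control libraries. Control replicate 3 was low and lay within the PRGL493 range, while all knockdown libraries were below every other library. The log2 fold change was -0.54 in knockdown cells (SE 0.07, edgeR adjusted p = 2.2e-05) and -0.36 between knockdown and PRGL493 (SE 0.07, edgeR adjusted p = 0.00040). For PRGL493 against control it was -0.18 (SE 0.07, edgeR adjusted p = 0.040), a call close to the threshold. That call was lost without control replicate 1 (-0.14), control replicate 2 (-0.14), PRGL493 replicate 2 (-0.17) or PRGL493 replicate 3 (-0.18), with edgeR adjusted p between 0.097 and 0.19. It was also lost with library totals alone (-0.17, edgeR adjusted p = 0.057) and in a fit of the PRGL493 and control libraries alone (-0.19, edgeR adjusted p = 0.051). Without control replicate 3 the fall was -0.27 (edgeR adjusted p = 0.0024).

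MCL1, on chromosome 1 (150574551 to 150579738, minus strand), encodes a short-lived member of the BCL2 family that holds back apoptosis. Knockdown libraries had 301, 272 and 281 CPM of MCL1 RNA, set against 434, 472 and 451 CPM in the PRGL493 libraries, and 816, 768 and 791 CPM in the control libraries. The 3 groups were well apart. MCL1 fell 2.78-fold in knockdown cells (log2 fold change -1.47, edgeR adjusted p = 1.4e-12, SE 0.05). The PRGL493 fall was 1.75-fold (log2 fold change -0.81, SE 0.05, edgeR adjusted p = 3.9e-09). It was lower in knockdown than in PRGL493 cells by a log2 fold change of -0.67 (SE 0.05, edgeR adjusted p = 3.4e-08).

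ZFP36, on chromosome 19 (39406813 to 39409412, plus strand), showed the deepest fall of the 10 genes in either treatment against control. It was at 28.8, 27.3 and 29.3 CPM in the knockdown libraries, at 50.3, 53.5 and 46.1 CPM in the PRGL493 libraries and at 118, 119 and 125 CPM in the control libraries. The groups were well apart, and the spread within each was small. Knockdown cells held 4.25-fold less ZFP36 RNA than control cells (edgeR adjusted p = 1.1e-13, log2 fold change -2.09, SE 0.06). PRGL493 cells held 2.42-fold less (edgeR adjusted p = 7.5e-11, log2 fold change -1.27, SE 0.06). Knockdown was below PRGL493 by a log2 fold change of -0.81 (SE 0.06, edgeR adjusted p = 2.9e-08). In knockdown against control 49 of the 14135 tested genes had a lower fold change than ZFP36.

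ZFP36L1, on chromosome 14 (68787660 to 68796253, minus strand), was at 344, 288 and 316 CPM in the knockdown libraries, at 431, 439 and 469.9 CPM in the PRGL493 libraries and at 558, 526 and 591 CPM in the control libraries. The groups did not overlap. The log2 fold change was -0.82 in knockdown cells (SE 0.06, edgeR adjusted p = 5.5e-08) and -0.32 with PRGL493 (SE 0.06, edgeR adjusted p = 0.00068), and -0.50 between knockdown and PRGL493 (SE 0.06, edgeR adjusted p = 7.2e-06). ZFP36L2, on chromosome 2 (43222402 to 43226609, minus strand), was at 41.1, 36.8 and 35.3 CPM in the knockdown libraries, at 44.8, 44.9 and 43.9 CPM in the PRGL493 libraries and at 49.0, 45.9 and 50.2 CPM in the control libraries. Its groups lay close together without overlap. ZFP36L2 fell by 0.36 in knockdown cells (SE 0.06, edgeR adjusted p = 0.00058), and knockdown was below PRGL493 by a log2 fold change of -0.24 (SE 0.06, edgeR adjusted p = 0.0055). The PRGL493 change against control missed the threshold (log2 fold change -0.12, 95% interval -0.25 to 0.02, edgeR adjusted p = 0.15). Removing the length and GC trend gave a call there (-0.19, edgeR adjusted p = 0.011), as did a fit of the PRGL493 and control libraries alone (-0.13, edgeR adjusted p = 0.040).

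The 3 ZFP36 genes were also set against each other within the family. Per kb of transcript, ZFP36 was 12.8% ± 0.717 of the family's summed CPM in knockdown cells, 15.6% ± 1.42 in PRGL493 cells and 26.5% ± 0.725 in control cells (SD, n = 3 each). ZFP36L1 made up 79.1% ± 0.851 in knockdown cells, 77.7% ± 1.65 in PRGL493 cells and 68.4% ± 0.707 in control cells. It was the main member in every library. ZFP36L2 made up 8.17% ± 0.490 in knockdown cells, 6.70% ± 0.256 in PRGL493 cells and 5.12% ± 0.0854 in control cells. The summed level was 125 ± 9.76 CPM per kb in knockdown cells, 180.0 ± 4.77 in PRGL493 cells and 256 ± 12.6 in control cells. For the ZFP36 share a 2-sided exact permutation test gave p = 0.10 for knockdown and for PRGL493 against control, the smallest that 3 against 3 libraries allow.

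**Figure D3:**
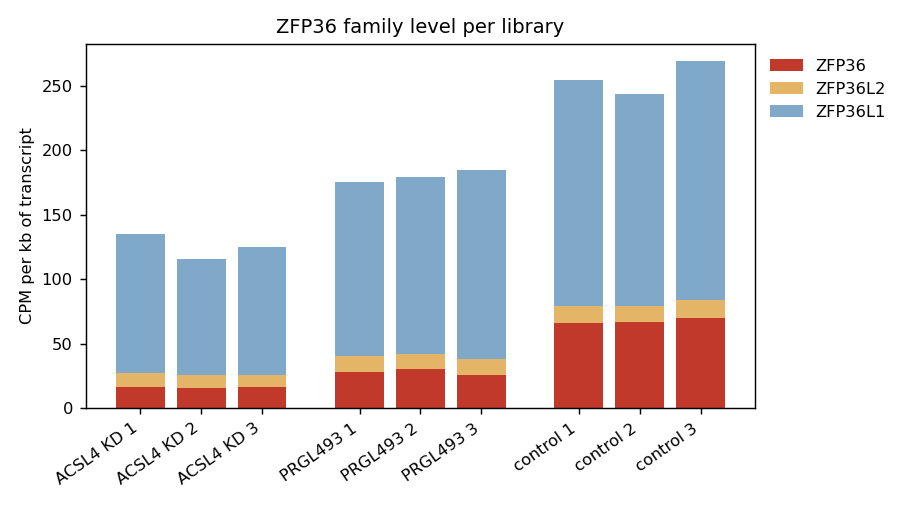
Summed level of the ZFP36 family in each library, in CPM per kb of the longest coding transcript, split into ZFP36, ZFP36L2 and ZFP36L1 (bars from 0). The knockdown libraries reach 115 to 135, the PRGL493 libraries 175 to 185 and the control libraries 244 to 269, and the ZFP36 part is smallest in knockdown cells.

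ZC3H12A, on chromosome 1 (37474552 to 37484379, plus strand), was at 64.3, 68.4 and 66.5 CPM in the knockdown libraries, at 86.6, 85.4 and 80.7 CPM in the PRGL493 libraries and at 133, 131 and 140.1 CPM in the control libraries. Each group was clear of the others. ZC3H12A was at 49.3% of control in knockdown cells (log2 fold change -1.02, SE 0.05, edgeR adjusted p = 3.0e-10) and at 62.5% with PRGL493 (log2 fold change -0.68, SE 0.05, edgeR adjusted p = 4.4e-08). The log2 fold change between knockdown and PRGL493 was -0.34 (SE 0.05, edgeR adjusted p = 5.4e-05).

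Knockdown and PRGL493 cells were compared directly to test whether the genes differed between a hairpin and an inhibitor aimed at the same enzyme. Of the 10 genes 9 were called lower in knockdown cells and 0 higher, against 26.0% of all tested genes called lower. The groups did not overlap for the same 9, against 28.7% of all genes. The exception was IER3. SRF is among the 9, although its order was not kept under other settings, and 8 are left without it. The median log2 fold change was -0.40, against -0.01 over all tested genes, and 8 of the 10 genes were called lower in all 3 comparisons, against 1.09% of all genes. Without SRF these were 7. The differences were uneven. IER2 differed by more than any other of the 10, followed by ZFP36 at -0.81 and MCL1 at -0.67.

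**Figure D4:**
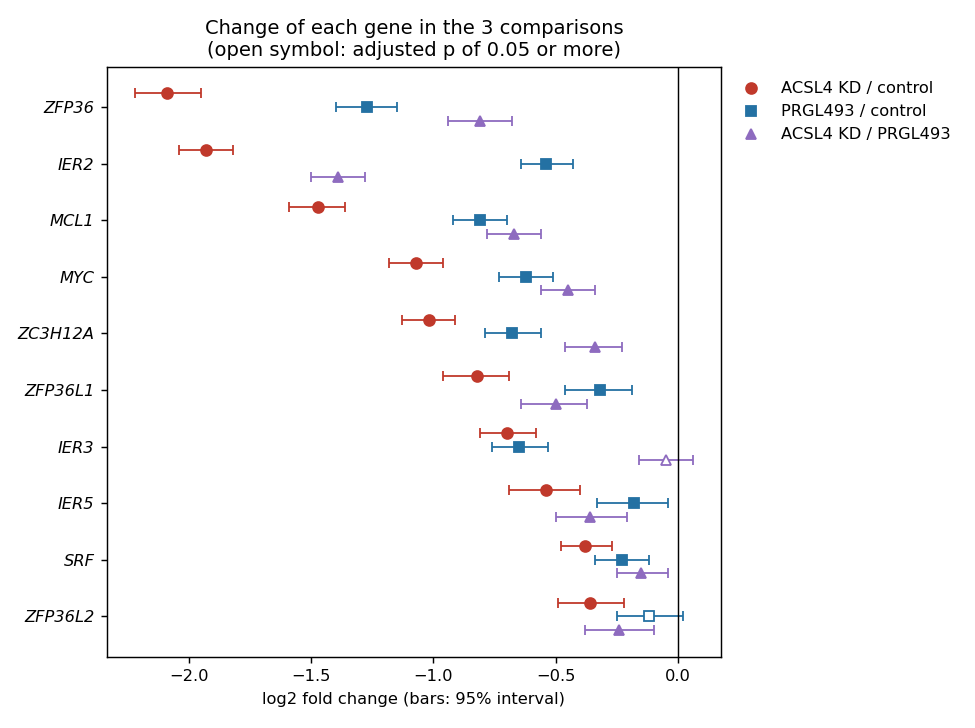
Log2 fold change of each gene with its 95% interval for ACSL4 knockdown over control (circles), PRGL493 over control (squares) and ACSL4 knockdown over PRGL493 (triangles); open symbols did not pass the test. Genes run from ZFP36 (-2.09 in knockdown over control) at the top to ZFP36L2 (-0.36) at the bottom, and the open symbols are PRGL493 over control for ZFP36L2 and knockdown over PRGL493 for IER3.

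The order of the levels also differed between groups. Set per kb of the longest coding transcript, IER3 was highest in all 3, at 803 ± 59.0 CPM per kb in knockdown cells, 831 ± 11.2 in PRGL493 cells and 1302 ± 36.4 in control cells. IER2 had rank 5 in knockdown cells (59.0 ± 2.42 CPM per kb) and rank 2 in both PRGL493 cells (155 ± 4.10) and control cells (225 ± 8.46). ZFP36L1 had rank 2 in knockdown cells (99.0 ± 8.76 CPM per kb), rank 3 in PRGL493 cells (140.0 ± 6.43) and stood below IER2 and MCL1 in control cells (175 ± 10.3), where it overlapped MYC. ZFP36L2 was lowest in all 3 groups, at 10.2 ± 0.804, 12.1 ± 0.160 and 13.1 ± 0.601 CPM per kb in knockdown, PRGL493 and control cells. Some neighbours in these orders overlapped between libraries and are not ranked against each other. They were MYC with MCL1 and SRF with ZC3H12A in knockdown cells, MCL1 with MYC and ZFP36 with SRF in PRGL493 cells, and also ZC3H12A with IER5 in control cells.

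Genes that work with these 10 were taken from 9 lists, chosen with earlier results of these data known. Their counts are to be read against all tested genes, of which 14.7% were called higher and 15.3% lower in knockdown against control. With PRGL493 against control 21.4% were called higher and 20.4% lower, and in knockdown against PRGL493 24.4% were called higher and 26.0% lower. Counts for the MYC partners, SRF cofactors, other decay-element proteins, decay machinery, BCL2 family and ERK cascade are small or near these shares, and nothing particular to those lists is read from them. Targets of MYC in nucleolar and growth functions fell in most cases with PRGL493 and not in knockdown cells. In knockdown cells 8 of 37 tested targets rose and 5 fell, with a median log2 fold change of 0.04 against 0.00 over all genes. With PRGL493 3 rose and 25 fell, with a median of -0.32 against 0.01. In knockdown against PRGL493 23 of the 37 were called higher and 4 lower (median 0.27). ODC1, the first enzyme of polyamine synthesis, fell in both, at 110.4 ± 9.30 CPM in knockdown cells, 68.8 ± 1.20 CPM in PRGL493 cells and 146 ± 5.18 CPM in control cells. NPM1, a nucleolar chaperone, was at 1257 ± 56.6 CPM in knockdown cells, 823 ± 25.2 CPM in PRGL493 cells and 1186 ± 18.0 CPM in control cells. It fell with PRGL493 (log2 fold change -0.53, edgeR adjusted p = 2.7e-07). The ribosome assembly factors WDR12 (-0.71) and RRP12 (-0.57) fell with PRGL493 too, and RRP12 also fell in knockdown cells (-0.19). In knockdown cells BOP1, also a ribosome assembly factor, fell (-0.39), as it did with PRGL493 (-0.20). SRM, the spermidine synthase (0.30), and the mitochondrial chaperone HSPD1 (0.22) rose in knockdown cells, and both fell with PRGL493 (-0.32 each).

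Partners and antagonists of MYC were mixed. Of 11 tested, 2 rose and 3 fell in knockdown cells (median log2 fold change -0.03), and 4 rose and 3 fell with PRGL493 (median 0.05). MXD4, a repressor that competes with MYC for MAX, was at 39.3 ± 3.24 CPM in knockdown cells, 100.4 ± 5.37 CPM in PRGL493 cells and 47.8 ± 2.16 CPM in control cells. It fell in knockdown cells (-0.28, edgeR adjusted p = 0.0052) and rose with PRGL493 (1.07, edgeR adjusted p = 2.3e-09), and the difference between knockdown and PRGL493 was called (-1.35, edgeR adjusted p = 1.1e-10). Its relatives MXD1 and MXI1 fell in both treatments, by 0.46 and 0.34 in knockdown cells and by 0.38 and 0.26 with PRGL493. MXD3 rose with PRGL493 (0.55). USP28, a deubiquitinase of MYC, rose in both (0.19 in knockdown cells and 0.24 with PRGL493).

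SRF cofactors changed little. Of 5 tested, 1 fell in knockdown cells, the ETS factor ELK3 (log2 fold change -0.28). ELK3 also fell with PRGL493 (-0.34), where MKL1, the actin-sensing cofactor, rose (0.29). Cytoskeletal targets of SRF rose in 2 and fell in 9 of 24 cases in knockdown cells (median -0.09), and rose in 3 and fell in 7 with PRGL493 (median -0.07). The actins ACTB (-0.31) and ACTG1 (-0.32), the cross-linker ACTN1 (-0.29) and caldesmon, CALD1 (-0.34), fell in knockdown cells. With PRGL493 LIMA1 (-0.39) and FHL1 (-0.39) fell, and the myosin heavy chain MYH9 rose (0.51). TAGLN, an actin-binding protein, fell in both (-0.63 in knockdown cells and -1.29 with PRGL493). The 3 rises with PRGL493 were 1 with DESeq2 size factors or upper-quartile factors.

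Most of the mRNAs listed for AU-rich elements, the kind of site that ZFP36 proteins bind, fell in both treatments against control. Binding to these mRNAs was not tested. Of 27 tested, 1 rose and 23 fell in knockdown cells, with a median log2 fold change of -0.46 against 0.00 over all genes. With PRGL493 3 rose and 23 fell (median -0.79 against 0.01). In knockdown against PRGL493 11 were higher and 8 lower (median 0.11). Some, such as FOS and the phosphatase gene DUSP1, are immediate early genes themselves. NFKBIZ, a cofactor of NF-kB, was at 50.2 ± 2.08 CPM in knockdown cells, 95.3 ± 3.13 CPM in PRGL493 cells and 312 ± 2.27 CPM in control cells. FOS fell in both treatments (-2.82 in knockdown cells and -0.47 with PRGL493), as did DUSP1 (-3.27 and -1.42) and the chemokine CXCL2 (-1.72 and -1.81). The cytokines IL6 (-1.41 in knockdown cells and -1.28 with PRGL493) and IL1A (-0.21 and -2.09) fell in both too. IL1A, at 341 ± 16.9 CPM in knockdown cells and 92.4 ± 2.02 CPM in PRGL493 cells, was among those higher in knockdown than in PRGL493 cells (log2 fold change 1.88, edgeR adjusted p = 9.5e-14).

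Other proteins that bind decay elements, and the kinases that act on ZFP36, formed a further list. Of 13 tested, 1 rose and 3 fell in knockdown cells (median log2 fold change -0.10), and 3 rose and 1 fell with PRGL493 (median 0.03). ZC3H12C, a relative of ZC3H12A, fell in knockdown cells (-0.25), as did RC3H2, a Roquin protein (-0.46). TIA1, a stress granule protein, rose in both (0.34 in knockdown cells and 0.38 with PRGL493). The general decay machinery rose in 6 and fell in 2 of 34 cases in knockdown cells (median 0.07), and rose in 6 and fell in 4 with PRGL493 (median 0.01). The decapping enzyme DCP2 rose in knockdown cells (48.1 ± 7.19 CPM, against 28.7 ± 2.30 CPM in control cells, log2 fold change 0.74, edgeR adjusted p = 6.5e-05). UPF1, the helicase of nonsense-mediated decay, rose in both (0.37 in knockdown cells and 0.58 with PRGL493). The exosome subunits EXOSC7 (-0.56) and EXOSC5 (-0.55) fell with PRGL493, while EXOSC10 rose in both (0.24 in knockdown cells and 0.22 with PRGL493).

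**Figure D5:**
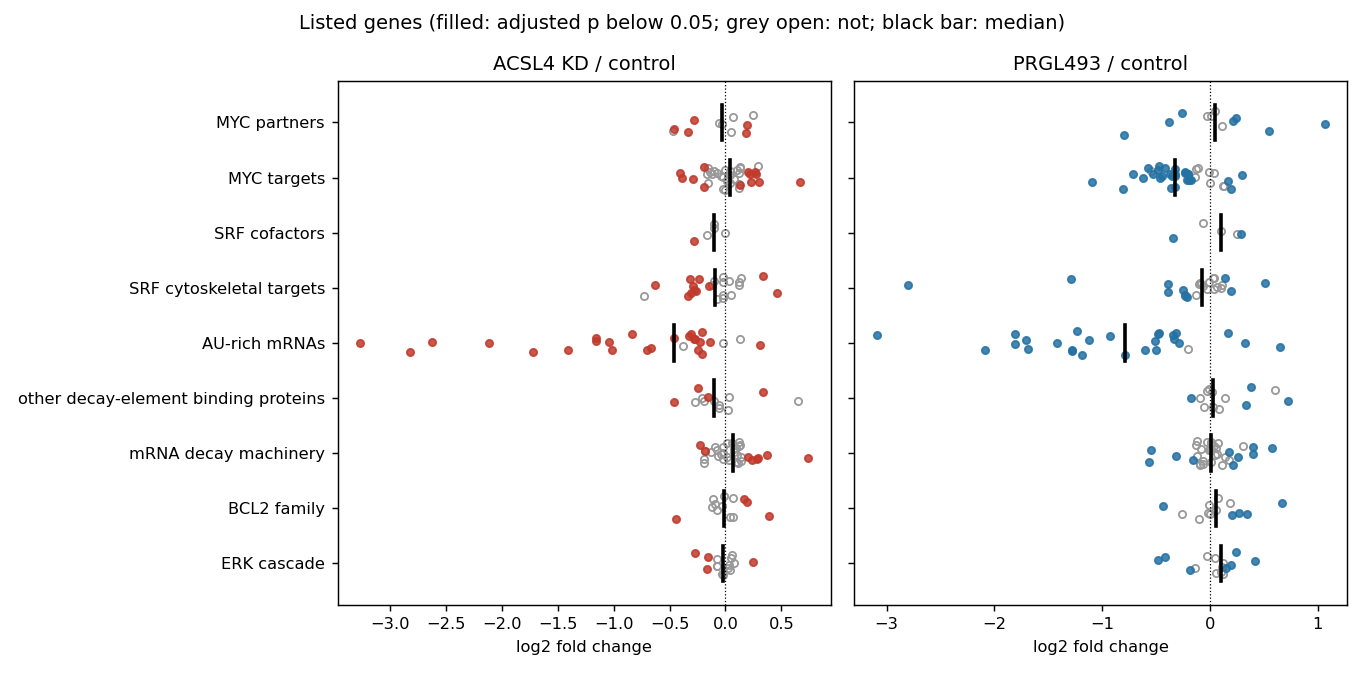
Log2 fold change of each listed gene for ACSL4 knockdown over control (left) and PRGL493 over control (right), with 1 point per gene, filled where the adjusted p was below 0.05, and a black bar at the median of each list. AU-rich mRNAs lie lowest in both panels (medians -0.46 and -0.79), and MYC targets are centred at 0.04 on the left and -0.32 on the right; the scales of the panels differ.

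Among the other BCL2 family genes, 3 of 13 rose and 1 fell in knockdown cells (median log2 fold change -0.01), and 4 rose and 1 fell with PRGL493 (median 0.06). PMAIP1 encodes NOXA, which binds and opposes MCL1. It fell beside MCL1 in both treatments (-0.44 in knockdown cells and -0.43 with PRGL493). BMF, another BH3-only protein, rose in both (0.39 in knockdown cells and 0.67 with PRGL493). Genes of the ERK cascade rose in 1 and fell in 3 of 15 cases in knockdown cells (median -0.02), and rose in 4 and fell in 3 with PRGL493 (median 0.10). HRAS (0.25) rose in knockdown cells. With PRGL493 the kinase gene ARAF (0.42) rose and the kinase gene MKNK2 (-0.48) fell. Phosphorylation of these kinases was not analysed here.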

How the data were processed

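Total RNA was extracted with Trizol, per the labels' protocols. The authors deposited 1 table of estimated counts per gene symbol, with no scaling for depth. Non-whole numbers made up 10.5% of the values, and each value was rounded to a whole number for the test. The build was GRCh38 per the submitters' processing notes. Aligner, counting tool, annotation and strand setting: not given in the sources used here. The counts of overlapping genes are therefore uncertain. Symbols turned into dates (28 rows) stayed in the totals unnamed.

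Low counts were removed with filterByExpr, and TMM set the scaling. In edgeR 4.0.16 (R 4.3.3) a robust quasi-likelihood model with group as its only term was fitted to all 9 libraries, which left 6 residual degrees of freedom. Adjustment was by Benjamini-Hochberg over 14135 genes. The script was tested on simulated data with known changes. The design had assumed whole counts, and its test was kept for rounded ones.

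The members and lists were chosen with earlier results of these data known. The genes named are the 10 members, ACSL4, up to 4 called genes of each list with the smallest adjusted p in knockdown against control and up to 4 in PRGL493 against control. For MYC, IER2, ZFP36 and ZFP36L2 the 3 genes most alike in level are named too, among those with an average log2 CPM of 4 or more. A few genes that this rule picks are not reported here. Lists were described by counts and medians, with no set test. Transcript lengths are those of the longest complete coding transcript in GENCODE 29, and 94.3% of tested genes had one. Alternatives were other scalings, filters, DESeq2 1.42.0, a replicate block, a length and GC correction and each library left out.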

Additional observations from a re-analysis of the deposited data

How the results depend on the processing

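Across 19 alternatives, 9 of which left out a library, all 114 counts of called genes stayed within 1.5 times the reported count. All 10 members were called lower in knockdown against control under each of the 19. As each library was left out, the genes called ran from 3074 to 4770 in knockdown against control, from 4769 to 7132 with PRGL493 and from 5941 to 7303 in knockdown against PRGL493. With PRGL493 8 to 10 were called, and 8 or 9 in knockdown against PRGL493. Of 570 values of single members, 550 kept their direction and side of the threshold, 11 lost a call, 5 gained one and 4 turned sign. The turns were in knockdown against PRGL493. SRF was at 0.03 with the length and GC trend removed, with or without the replicate block. IER3 was at 0.01 with upper-quartile factors and at 0.01 without knockdown replicate 1, in a range of -0.10 to 0.01 as each library was left out. The cause was not tested. With library totals alone or upper-quartile factors, 59.8% and 58.7% of calls in knockdown against control were higher, against 49.0% as reported. With upper-quartile factors 58.4% were higher in knockdown against PRGL493, against 48.4%.

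Same-numbered libraries did not deviate together in every pair of groups (correlations of -0.084 to 0.152), so the numbers were not taken to pair them, although all 6 knockdown and control libraries correlated best with their own number. With the replicate block 3879, 5635 and 6857 genes were called in the 3 comparisons, against 4250, 5909 and 7130, and 10, 9 and 9 members. List counts were recomputed under 5 of these settings, a choice made after seeing the data. MYC targets and AU-rich mRNAs called lower with PRGL493 stayed at 25 to 26 and 23 to 24, and AU-rich mRNAs called lower in knockdown cells at 21 to 23. MYC targets called in knockdown cells ran from 7 to 12 higher and 5 to 7 lower. Among lists with few calls, ERK cascade genes lower in knockdown cells went to 0 with library totals and 1 with upper-quartile factors, against 3, SRF cytoskeletal genes higher with PRGL493 went to 1 with DESeq2 size factors or upper-quartile factors, against 3, decay machinery genes lower in knockdown cells went to 1 with library totals, upper-quartile factors or the trend removed, against 2, and BCL2 family genes higher in knockdown cells went to 1 without knockdown replicate 2, against 3. Another 7 list counts of 1 went to 2 under 1 setting each.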

Other observations

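The genes whose level followed these members most closely over the 9 libraries were other early response genes, among 8228 genes averaging 4 or more in log2 CPM. The likeness is Pearson's r of log2 CPM. The libraries form 3 groups, so r mostly reflects the order of 3 group means, and it is given as a description. MYC was most like SGK1, a kinase induced by serum and glucocorticoids (r = 0.997), JUNB, an AP-1 subunit (0.995), and DUSP6, a phosphatase of ERK (0.994). SGK1 averaged 19.0 ± 1.33 CPM in knockdown cells, 41.1 ± 1.88 CPM in PRGL493 cells and 125 ± 3.04 CPM in control cells.

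IER2 was most like BHLHE40, a repressor of the clock (r = 0.997), and the early factors EGR1 (0.995) and FOS (0.992). BHLHE40, EGR1 and FOS, like IER2, stood lowest in knockdown cells. EGR1 averaged 206 ± 40.2 CPM in knockdown cells, 966 ± 45.7 CPM in PRGL493 cells and 1898 ± 34.1 CPM in control cells. ZFP36 was most like NFKBIZ (0.998), DUSP6 (0.998) and PLK2, a kinase of the polo family (0.997). The matches of ZFP36L2 were weaker and included PRRG1 (0.969) and PAPOLA, a poly(A) polymerase (0.964).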
